A study of Mus musculus with 10 samples.

Results

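The 9 genes described here encode the microtubule plus-end binding proteins of the EB family (Mapre1, Mapre2 and Mapre3), the CLIP family (Clip1, Clip2, Clip3 and Clip4) and the CLASP family (Clasp1 and Clasp2), out of 22000 genes in the count table. Mapre2 and Clip3 were chosen by their values in the comparison of Zbtb16 KO with WT mice, since the study had singled them out from these same libraries, so their genotype values are given as a description, with no test. The other 7 genes entered as their family relatives, not by their values, and were tested. RNA-seq was done on the prefrontal cortex (PFC) of 5 KO and 5 WT mice, all labelled male and all 7 weeks old, with 1 library for each mouse. KO mice are homozygous for the luxoid (lu) allele of the B6.C3-Zbtb16 lu/J line, a nonsense point mutation carried in the germline and thus in every cell, and WT mice carry no such allele. Zbtb16 encodes a zinc finger transcription factor.

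Growing microtubule ends recruit a shared set of proteins. EB proteins recognize the end itself and hold most of the others there, CLIP proteins carry CAP-Gly domains that bind the carboxy-terminal tails of EB proteins and of tubulin, and CLASP proteins slow the loss of tubulin and promote regrowth. In neurons these proteins act in axon growth, in dendritic spines and in the loading of dynein cargo.

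The ends of the coding sequences are given as the last 30 coding bases, stop codon included, of the principal Gencode M21 transcript (build mm10). The last codon before the stop is in capitals. These ends are printed because an aromatic last residue is a feature by which CAP-Gly domains recognize tails, and not every member has it. Of the 7 members examined, 2 ended in an aromatic codon: tyrosine in Mapre3 and phenylalanine in Clip1.
Mapre3: caccaacaggaagaccaggacgagTACtga
Clip1: accaactgcaatgacgacgagaccTTCtga
Clip2: aaggcccacaaacaggaggacaaaCACtga
Clip3: tggatgctgagggcagagatgcagTCTtag
The Clip2 and Clip3 tails ended in another residue, as did those of Clip4, Clasp1 and Clasp2.

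Libraries held 30220122 to 51231439 counts, and 3 counts corresponded to 0.0586 to 0.0993 CPM (counts scaled to library sizes adjusted by TMM). RIN, the RNA integrity number, ranged from 8.1 to 9.8, with 3 mice at 9.5 or above and 2 mice at 8.3 or below in each genotype. Zbtb16 itself was at 79.0 ± 7.23 CPM in WT and 47.4 ± 4.96 CPM in KO mice (SD, n = 5 each), with every KO mouse below every WT mouse. The library of KO mouse 3 held 1 count over the Y-chromosome genes Uty, Kdm5d, Eif2s3y and Ddx3y, against 4376 to 8182 counts in the other 9 libraries, although the label says male. The library of KO mouse 2 had the highest summed oligodendrocyte markers (8640 CPM) and the lowest summed neuron markers (7551 CPM) of the 10. It also had the highest sums of astrocyte (1511 CPM), oligodendrocyte precursor (191.0 CPM) and microglial (235.5 CPM) markers. Some results, mainly the larger correlations and some fold changes, are given with and without these mice. The library of WT mouse 5 had the highest summed striatal markers (491.5 CPM). In bulk tissue, fewer cells of a type and less RNA per cell cannot be told apart.

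Per kilobase of exon, Clip3 was the most abundant member in every mouse. Its level was 120.3 ± 3.86 RPKM in WT mice (SD, n = 5), above 98.3% of the 13639 tested genes with a known length. Mapre3, the EB gene best known from neurons, followed with 51.5 ± 1.24 RPKM, and Clip2 with 34.1 ± 1.59 RPKM. Mapre2 stood at 29.2 ± 0.699 RPKM and Clasp2 at 21.04 ± 0.501 RPKM. Clip1, the founding CLIP protein, stood at 13.6 ± 0.562 RPKM and Mapre1, the ubiquitous EB protein, at 12.7 ± 0.796 RPKM. The lowest were Clasp1 at 6.21 ± 0.257 RPKM and Clip4 at 5.95 ± 0.240 RPKM, near the middle of all genes (percentile 51.9 for Clip4). Mapre2 was below Clip2 in all 10 mice, although their ranges over both genotypes overlapped. The ranges also overlapped between Clip1 and Mapre1, where Mapre1 was the lower in 7 of 10 mice, and between Clasp1 and Clip4, where Clip4 was the lower in 8 of 10 mice, so these last neighbours did not differ beyond their spread.

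The order depended on the length used. With the longest coding transcript of each gene, Clip3 (143.5 ± 4.60 RPKM in WT) and Mapre3 (88.1 ± 2.13 RPKM) still led, Mapre2 (74.0 ± 1.77 RPKM) and Clasp2 (57.7 ± 1.37 RPKM) moved above Clip2 (35.5 ± 1.65 RPKM), and Clip4 (17.3 ± 0.698 RPKM) moved above Mapre1 (13.6 ± 0.848 RPKM) and Clasp1 (13.2 ± 0.547 RPKM). Clip1 was at 27.5 ± 1.14 RPKM on this scale. In both orders Clip3 was first and Mapre3 second.

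**Figure D1:**
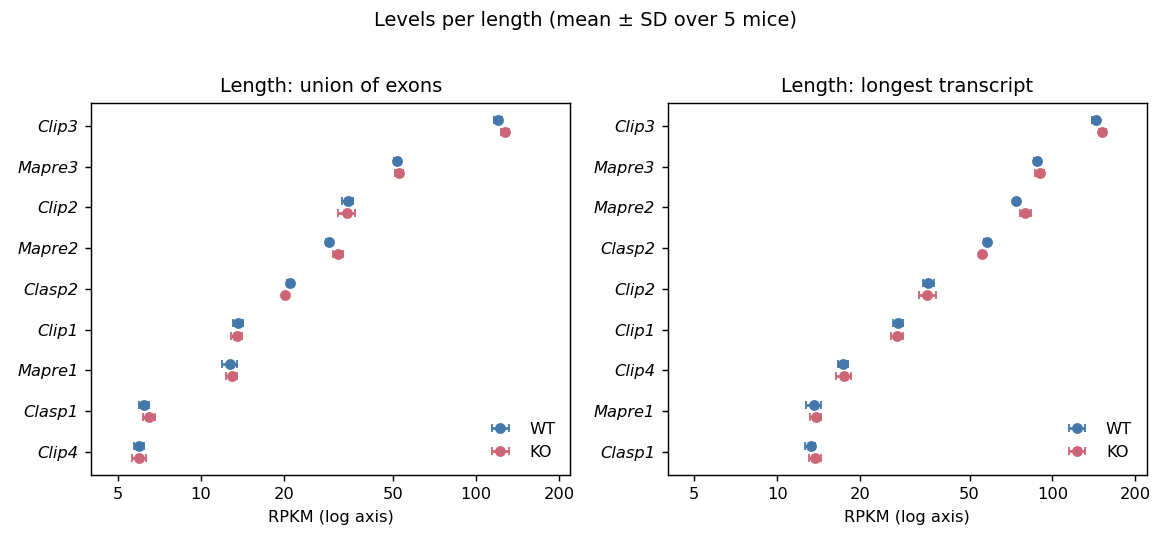
Levels of the 9 genes in RPKM on a log axis, as mean ± SD over 5 WT (blue) and 5 KO (red) mice, by the union of exons (left) and the longest coding transcript (right). Clip3 leads in both panels, at 120.3 RPKM in WT mice by the union of exons, and KO and WT points of a gene lie close together.

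Mapre3, Clip3 and Clasp2 had the largest share of their families. By the union of exons, Mapre3 gave 55.1% ± 0.841 of the EB total in WT mice, against 31.3% ± 0.324 for Mapre2 and 13.6% ± 0.695 for Mapre1. Clip3 gave 69.1% ± 0.671 of the CLIP total and Clasp2 gave 77.2% ± 0.495 of the CLASP total. In KO mice the Mapre2 share was 32.5% ± 0.945 and the Clip3 share 70.5% ± 1.52. The Clasp1 share was 22.8% ± 0.495 in WT mice, with a range of 22.2% to 23.5%, and 24.3% ± 1.01 in KO mice, with a range of 22.8% to 25.4%. By the longest transcript, Mapre3 gave 50.1% ± 0.706 of the EB total in WT and 49.0% ± 0.832 in KO mice, and Mapre2 gave 42.1% ± 0.415 and 43.5% ± 1.02. On that scale Clip3 gave 64.1% ± 0.661 of the CLIP total and Clasp2 81.4% ± 0.427 of the CLASP total in WT mice. The ranges of the 2 genotypes overlapped for all 9 genes on both scales. No test was run on these shares.

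The comparison of KO with WT mice asks which cortical transcripts differ when Zbtb16 is disrupted. By the quasi-likelihood test of edgeR, none of the 7 tested members passed the threshold of 0.05 on the adjusted p, where 0.802% of 14344 genes did (115 genes, 83 higher and 32 lower in KO). At an unadjusted p under 0.05 there was 1 of the 7, Clasp2, beside 10.6% of all tested genes. DESeq2 also called 0 of 7, beside 1.58% of all tested genes, with 1 of 7 at an unadjusted p under 0.05, beside 9.38%. The fitted log2 fold change was positive for 6 of the 7, with a median of 0.02 beside -0.0045 for all tested genes. The 95% confidence intervals of the 7 lay between -0.14 and 0.15. Missing the threshold does not show that the genotypes were equal. In 0 of the 7 did all KO mice lie on one side of all WT mice, a separation that 1.58% of all tested genes had.

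**Figure D2:**
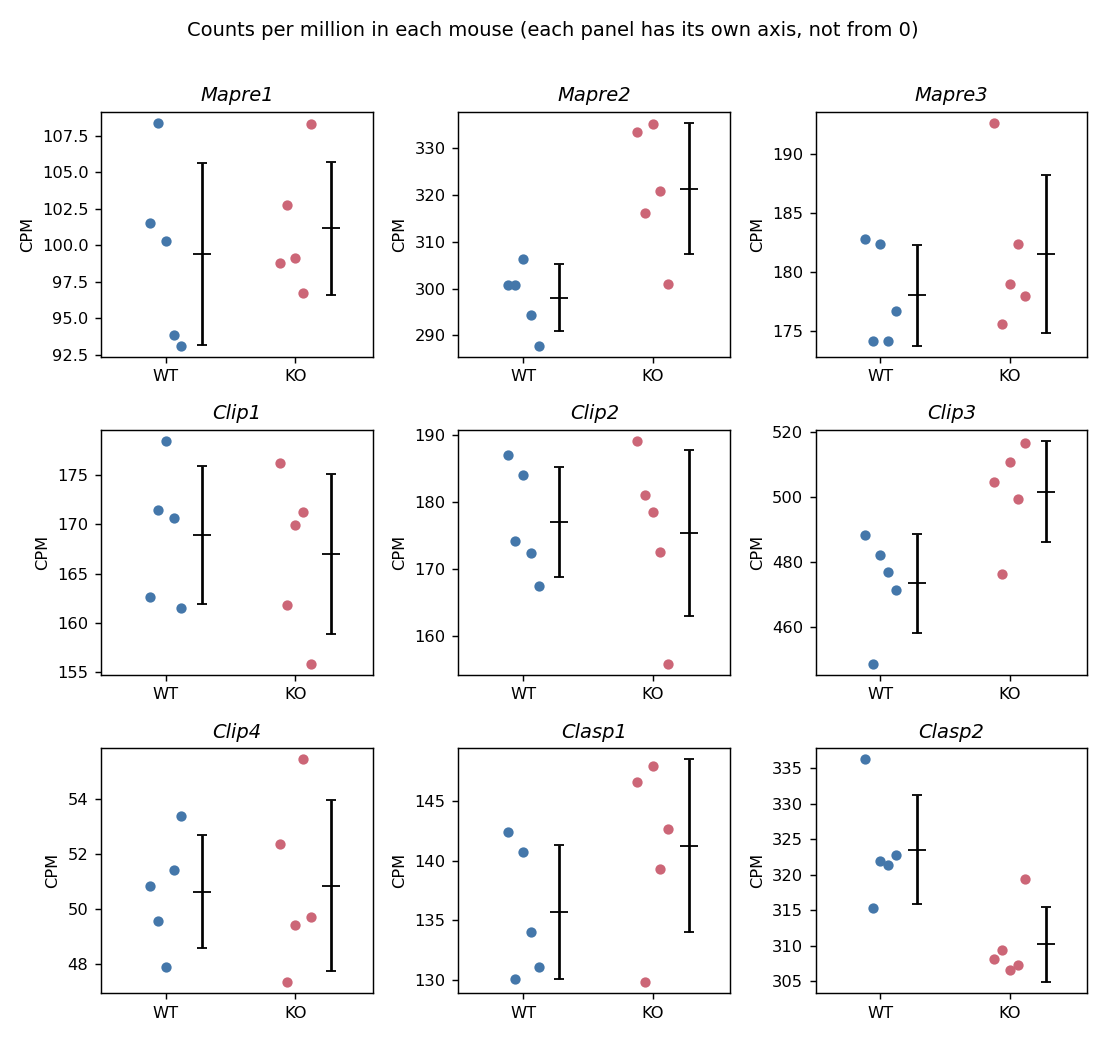
TMM-scaled CPM of each gene in each mouse, WT in blue and KO in red, with the mean ± SD over 5 mice at the right of each group, and a separate vertical axis for each gene that does not start at 0. Mapre2 and Clip3 each have 4 KO mice above all WT mice, Clasp2 has 4 KO mice below all WT mice, and the groups overlap in the other panels as well.

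Mapre2 (chr18:23752333-23893861, + strand) encodes EB2, an EB protein found along the microtubule as well as at its end. Its level in KO mice 1 to 5 was 333.5, 316.1, 335.1, 320.9 and 301.0 CPM. In WT mice 1 to 5 it was 300.9, 300.8, 306.4, 294.3 and 287.8 CPM. Thus 4 KO mice were above every WT mouse and KO mouse 5 lay inside the WT range. The means were 321.3 ± 14.0 CPM in KO and 298.0 ± 7.13 CPM in WT mice (SD, n = 5 per group). The fitted log2 fold change was 0.14 (SE 0.03), or 9.89% higher in KO. Without KO mouse 3, the highest of the 10, the log2 fold change was 0.13. Leaving out 1 mouse at a time gave values from 0.11 to 0.15.

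Mapre1 (chr2:153741274-153773310, + strand) encodes EB1. Its 5 KO mice spanned 96.7 to 108.3 CPM, with a median of 99.1 CPM, inside the WT range of 93.1 to 108.3 CPM. The log2 fold change was 0.02 (SE 0.05) (adjusted p = 0.947 by edgeR). Mapre3 (chr5:30814641-30866106, + strand) encodes EB3. KO mouse 1 had 192.6 CPM, above every WT mouse, and the other 4 KO mice fell between 175.5 and 182.4 CPM, within the WT range of 174.1 to 182.8 CPM. Its log2 fold change was 0.05 (SE 0.04, adjusted p = 0.687 by edgeR), and 0.01 without KO mouse 1. Whether Mapre2 differed from the other EB genes in its response to genotype was not tested.

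Clip3 (chr7:30291728-30308367, + strand) encodes CLIPR-59, which differs from the other CLIP proteins in residing at the trans-Golgi network and the plasma membrane. Its level in KO mice 1 to 5 was 504.7, 476.5, 510.9, 499.5 and 516.8 CPM. In WT mice 1 to 5 it was 488.4, 448.8, 482.2, 477.0 and 471.4 CPM. KO mouse 2 lay inside the WT range and the other 4 KO mice lay above it. The means were 501.7 ± 15.5 CPM in KO and 473.6 ± 15.2 CPM in WT mice (SD, n = 5 per group). The fitted log2 fold change was 0.08 (SE 0.03), or 5.63% higher in KO. Without KO mouse 2 it was 0.09, and without KO mouse 3 it was 0.07.

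The remaining CLIP genes showed no call. Clip1 (chr5:123577795-123684618, - strand) encodes CLIP-170, the plus-end protein for which the CAP-Gly domain was characterized, and its KO mice spanned 155.9 to 176.2 CPM against 161.6 to 178.4 CPM in WT mice. Clip2 (chr5:134489383-134552434, - strand) encodes CLIP-115, a brain-enriched relative. Its KO mice spanned 155.9 to 189.1 CPM around the WT range of 167.5 to 187.1 CPM, and KO mouse 5 was the lowest of the 10. Clip4 (chr17:71768473-71864273, + strand) was at 50.9 ± 3.10 CPM in KO and 50.6 ± 2.04 CPM in WT mice (SD, n = 5 each). The log2 fold changes were 0.01 (SE 0.04) for Clip1, 0.02 (SE 0.04) for Clip2 and 0.04 (SE 0.05) for Clip4. The adjusted p in edgeR's test was 0.948 for Clip1, 0.897 for Clip2 and 0.860 for Clip4. The mean CPM of Clip1 and Clip2 was slightly lower in KO (167.0 against 168.9 CPM and 175.4 against 177.1 CPM), and their fitted log2 fold changes were negative in the model with no surrogate variables, -0.02 and -0.01.

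The 2 CLASP genes had fitted changes of opposite sign. Clasp2 (chr9:113741473-113919682, + strand), the CLASP gene enriched in brain, was at 308.2, 309.4, 306.6, 307.2 and 319.4 CPM in KO mice 1 to 5. In WT mice 1 to 5 it was at 336.2, 315.2, 321.9, 321.4 and 322.8 CPM. Here 4 KO mice lay below every WT mouse and KO mouse 5 lay within their range. The means were 310.1 ± 5.25 CPM in KO and 323.5 ± 7.71 CPM in WT mice (SD, n = 5 each). The log2 fold change was -0.07 (SE 0.03) (unadjusted p = 0.0446, adjusted p = 0.458 by edgeR), so the difference did not pass. Clasp1 (chr1:118389058-118612678, + strand) was at 146.6, 129.8, 147.9, 139.3 and 142.6 CPM in KO mice 1 to 5. In WT mice 1 to 5 it was at 142.4, 130.1, 140.7, 134.0 and 131.1 CPM. For this gene 3 KO mice were above every WT mouse and KO mouse 2 was below every WT mouse. The log2 fold change was 0.07 (SE 0.04) (unadjusted p = 0.0548, adjusted p = 0.488 by edgeR). Without KO mouse 2 it was 0.09 (adjusted p = 0.288 by edgeR), without KO mouse 3 it was 0.07, and without WT mouse 5 it was 0.03. The difference between the responses of Clasp1 and Clasp2 was not tested.

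**Figure D3:**
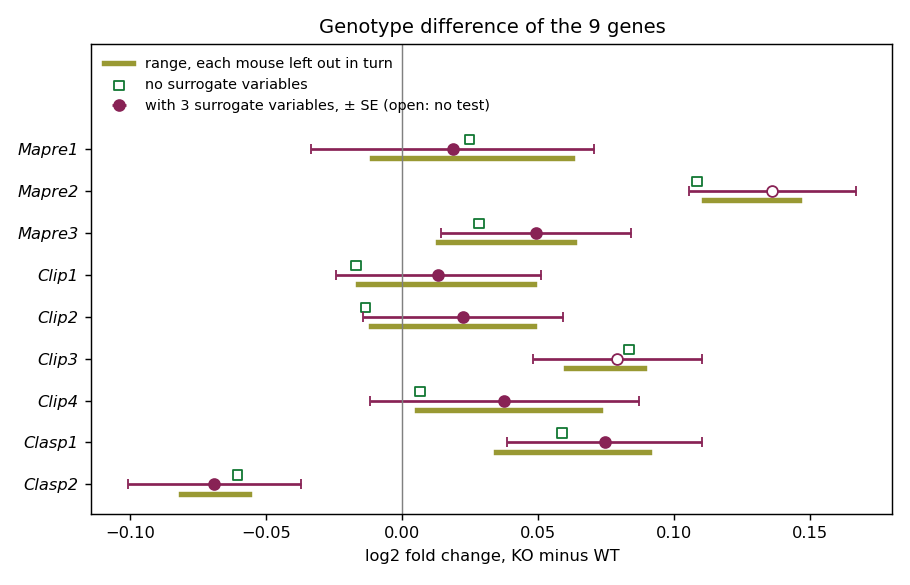
Log2 fold change, KO minus WT, of the 9 genes with 3 surrogate variables (circles, ± SE; open circles for Mapre2 and Clip3, which have no test), with no surrogate variables (open squares) and as the range over fits that leave out 1 mouse each (bars). Clasp2 is the lowest at -0.07, Mapre2 the highest at 0.14, and Clip1 and Clip2 are to the left of 0 with no surrogate variables.

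Counting error was below the spread between mice for every member. Each member had at least 1513 counts in every library, and the counting error of the lowest count ran from 0.825% for Clip3 to 2.57% for Clip4. The coefficient of variation between mice ran from 1.69% (Clasp2 in KO) to 7.08% (Clip2 in KO). The margin was small for Clasp2, with a counting error of 1.01% against 1.69% in KO mice, for Mapre3, with 1.35% against 2.41% in WT mice, and for Clip4, with 2.57% against 4.03% in WT mice. Multi-mapped reads had been removed before counting. Clip2 shares 313 bp of exon with an antisense gene, Gm42884, on the opposite strand, and whether counting used strand is not given in the sources used here. The other 8 members overlap no annotated exon of another gene.

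RIN was not used to choose any member, so all 9 were tested against it. In a model with genotype and RIN, edgeR called 0 of 9 members, where 0.397% of all tested genes were called (57 genes). None of the 9 had an unadjusted p under 0.05, beside 11.1% of all tested genes, and DESeq2 gave 0 of 9 on both counts. Slopes ran from -0.03 (Clasp1, SE 0.03, adjusted p = 0.766 by edgeR) to 0.04 (Clip2, SE 0.03, adjusted p = 0.755 by edgeR) on the log2 scale for each RIN unit.

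The members varied together to different degrees within a genotype. Pearson correlations of log2(CPM + 1) over the 10 mice, after the genotype mean had been subtracted, ran from -0.65 to 0.85 over 36 pairs, with a median of 0.12. The highest were Clip3 with Clasp1 (0.85), Mapre2 with Clip2 (0.84) and Mapre2 with Clip1 (0.81). The lowest were Clip1 with Clasp2 (-0.65) and Mapre1 with Clip4 (-0.59). Mapre2 with Clip3 had a correlation of 0.03. Without KO mouse 2 the values were 0.74 for Clip3 with Clasp1, 0.91 for Mapre2 with Clip2 and 0.81 for Mapre2 with Clip1. Without KO mouse 3 they were 0.85, 0.89 and 0.85. Some lower pairs moved more when KO mouse 2 was left out. Clip4 with Clasp1 went from 0.07 to -0.50, and Clip2 with Clasp1 from 0.31 to 0.66. These values describe 10 libraries that share depth and composition, and carry no test.

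**Figure D4:**
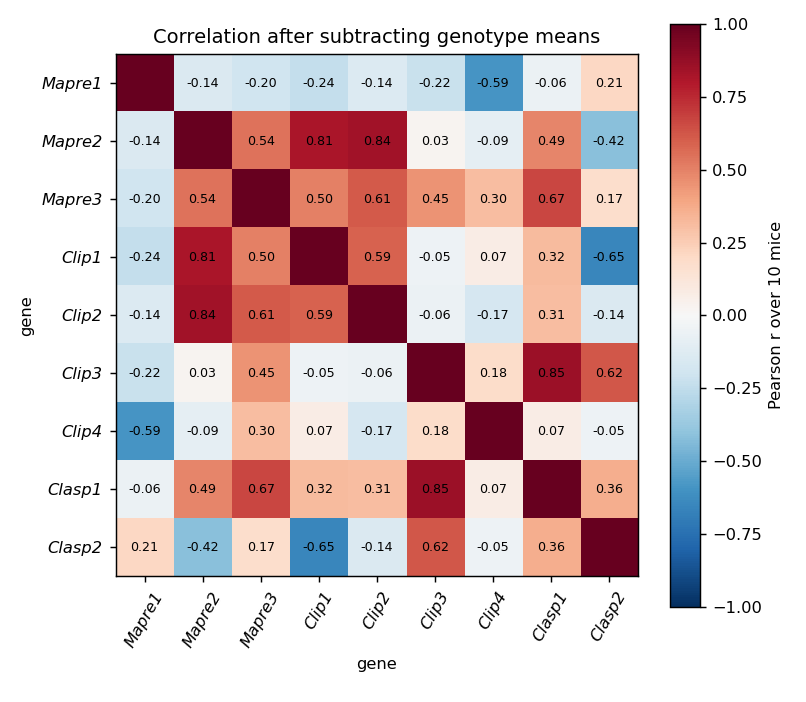
Pearson correlation of log2(CPM + 1) between the 9 genes over 10 mice after the genotype means were subtracted, from -1 (blue) to 1 (red). The pairs among Mapre2, Mapre3, Clip1 and Clip2 run from 0.50 to 0.84. Outside them, Clip3 with Clasp1 reaches 0.85, Mapre3 with Clasp1 0.67 and Clip3 with Clasp2 0.62.

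Over all tested genes, those most like Mapre2 by this measure were Ndel1 (0.95), a regulator of dynein that also loads onto growing ends, Myo19 (0.95), a mitochondrial myosin, and Igsf9b (0.94), a synaptic adhesion protein. Those most like Clip3 were Clstn1 (0.97), a kinesin cargo adaptor, Trim32 (0.96), a ubiquitin ligase, and Iqsec2 (0.96), an exchange factor of synapses. Each value is over 10 mice. Picking the 3 highest from 14344 tested genes gives high values even among unrelated genes, and no test was run on them. Without KO mouse 2 they were 0.96, 0.95 and 0.97 for Mapre2 and 0.96, 0.95 and 0.94 for Clip3, in the same order. Without KO mouse 3 they were 0.97, 0.94 and 0.95 for Mapre2 and 0.98, 0.97 and 0.98 for Clip3. Cell type markers moved with some members. The correlation of Clasp1 was -0.82 with the summed oligodendrocyte markers, -0.69 with the astrocyte markers and 0.67 with the neuron markers, and that of Clip3 was -0.72 with the oligodendrocyte markers. For Mapre2 the largest in size was -0.65, with the astrocyte markers. Without KO mouse 2 the values of Clasp1 were -0.64, -0.38 and 0.17 in the same order, that of Clip3 was -0.50 and that of Mapre2 was -0.77, so the relation of Clasp1 to the neuron and astrocyte markers rests largely on this mouse. Without KO mouse 3 they were -0.80, -0.62 and 0.68 for Clasp1, -0.71 for Clip3 and -0.51 for Mapre2. Values of like size over the 10 mice were Clip1 with astrocyte markers (-0.69), Mapre1 with mural markers (0.69) and Clip4 with neuron markers (0.65). They were -0.74, 0.69 and 0.44 without KO mouse 2, and -0.77, 0.68 and 0.70 without KO mouse 3. With the striatal markers, Clip2 was at -0.63, Mapre2 at -0.60, Clip1 at -0.52 and Clip4 at 0.51. The remaining members lay between -0.36 (Clasp1) and 0.05 (Clasp2). WT mouse 5 had the highest striatal sum, and no correlation was computed without it. Leaving out KO mouse 2 also moved Clip4 with oligodendrocyte markers from 0.09 to 0.80, and Clip2 with neuron markers from 0.12 to 0.69. For Clip3 it changed the sign with neuron (0.50 to -0.15), oligodendrocyte precursor (-0.22 to 0.51) and microglial markers (-0.27 to 0.41). Clasp1 with microglial markers went from -0.55 to -0.06. KO mouse 2, with the highest oligodendrocyte, oligodendrocyte precursor, astrocyte and microglial sums, had the lowest Clasp1 of all mice and the lowest Clip3 of the KO mice.

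Between genotypes, the 7 oligodendrocyte markers summed to 6178 to 7766 CPM in WT and 5973 to 8640 CPM in KO mice. The 8 neuron markers summed to 8304 to 8640 CPM in WT and 7551 to 8579 CPM in KO mice, and the 6 astrocyte markers to 1149 to 1270 CPM in WT and 1190 to 1511 CPM in KO mice. Sums of the 7 microglial markers were 209.0 to 226.0 CPM in WT and 209.3 to 235.5 CPM in KO mice, and those of the 4 oligodendrocyte precursor markers were 148.2 to 164.4 CPM in WT and 158.0 to 191.0 CPM in KO mice. The 5 endothelial markers summed to 147.8 to 166.6 CPM in WT and 137.9 to 165.5 CPM in KO mice, and the 4 mural markers to 130.5 to 161.5 CPM in WT and 134.0 to 153.9 CPM in KO mice. The 7 striatal neuron markers, which mark tissue outside the PFC, summed to 250.3 to 491.5 CPM in WT and 279.1 to 414.6 CPM in KO mice. WT mouse 5 alone had 491.5 CPM, and the other WT mice lay between 250.3 and 281.8 CPM. Among fits that left out 1 mouse, the one without WT mouse 5 gave the lowest log2 fold change for Mapre2 (0.11), Clip3 (0.06) and Clasp1 (0.03). It gave the highest for Clip4 (0.07). None of the marker sums separated the genotypes, and edgeR called no marker on any list, beside 0.802% of all tested genes. At an unadjusted p under 0.05 there were 3 striatal, 2 neuron, 2 astrocyte, 1 oligodendrocyte, 1 microglial and 1 endothelial markers, beside 10.6% of all tested genes. DESeq2 called 1 neuron and 1 striatal marker, beside 1.58% of all tested genes. The part of the cell type markers in the values of the plus-end genes was not tested.

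Other genes of the pathway were read from 9 lists with 106 tested genes in all. The lists were drawn up with earlier results of these data known, so a call in them is no independent evidence. By edgeR's test 2 genes were higher and 1 was lower in KO mice, beside 0.802% of all tested genes. The median log2 fold change was 0.01. Both higher genes were among the 24 tested plus-end tracking proteins of other families, where 7 had an unadjusted p under 0.05, beside 10.6% of all tested genes, and the median was 0.01. Apc, which binds microtubule ends and EB proteins and acts in Wnt signalling, was at 694.3, 651.3, 710.9, 666.7 and 868.0 CPM in KO mice 1 to 5. In WT mice 1 to 5 it was at 648.0, 610.1, 616.2, 587.3 and 552.9 CPM. Every KO mouse was above every WT mouse, and Apc rose by a log2 fold change of 0.22 (SE 0.04, adjusted p = 0.0129 by edgeR). Nav3, a neuron navigator protein that follows growing ends, was at 174.4 ± 14.0 CPM in KO and 153.8 ± 5.41 CPM in WT mice (SD, n = 5 each). It rose by a log2 fold change of 0.18 (SE 0.04, adjusted p = 0.0207 by edgeR), with 4 of 5 KO mice above all WT mice.

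The lower gene was Phldb1, 1 of 10 cortical partners of CLASP, which encodes LL5-alpha, a relative of the protein that anchors CLASP at the cell cortex. It was at 88.9 ± 10.1 CPM in KO and 106.4 ± 6.34 CPM in WT mice (SD, n = 5 each), and 4 of 5 KO mice were below all WT mice. Its log2 fold change was -0.32 (SE 0.05, adjusted p = 0.00354 by edgeR). KO mouse 2, at 105.1 CPM, was the exception, and without it the log2 fold change was -0.36. This mouse had the highest summed oligodendrocyte markers (8640 CPM). KO mice 1 and 5, with the lowest Phldb1 (78.1 and 83.8 CPM), had the lowest sums (6005 and 5973 CPM). Among WT mice, mouse 4 had the highest Phldb1 (114.5 CPM, sum 6749 CPM) and mouse 2 the lowest (99.1 CPM, sum 7438 CPM). The relation of Phldb1 to these markers was not tested. With no surrogate variables the log2 fold changes were 0.25 for Apc, 0.18 for Nav3 and -0.26 for Phldb1, while the adjusted p of edgeR was 0.263 for Apc, 0.316 for Nav3 and 0.252 for Phldb1. Of the 12 alternatives that left out no mouse in turn, this one included, the call was lost in 7 for Apc, 8 for Nav3 and 8 for Phldb1. These include RIN, the striatal marker score or the replicate number in place of the surrogate variables. Leaving out a mouse ended the call of Apc and of Nav3 in 5 of 10 cases each, for KO mice 1 and 3 and WT mice 3, 4 and 5. Without KO mouse 3 the adjusted p of edgeR was 0.0529 for Apc and 0.0778 for Nav3, and the largest were 0.171 for Apc (without WT mouse 5) and 0.168 for Nav3 (without KO mouse 1). For Phldb1 it ended the call in 1 of 10 cases, without KO mouse 1 (adjusted p = 0.0638 by edgeR).

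**Figure D5:**
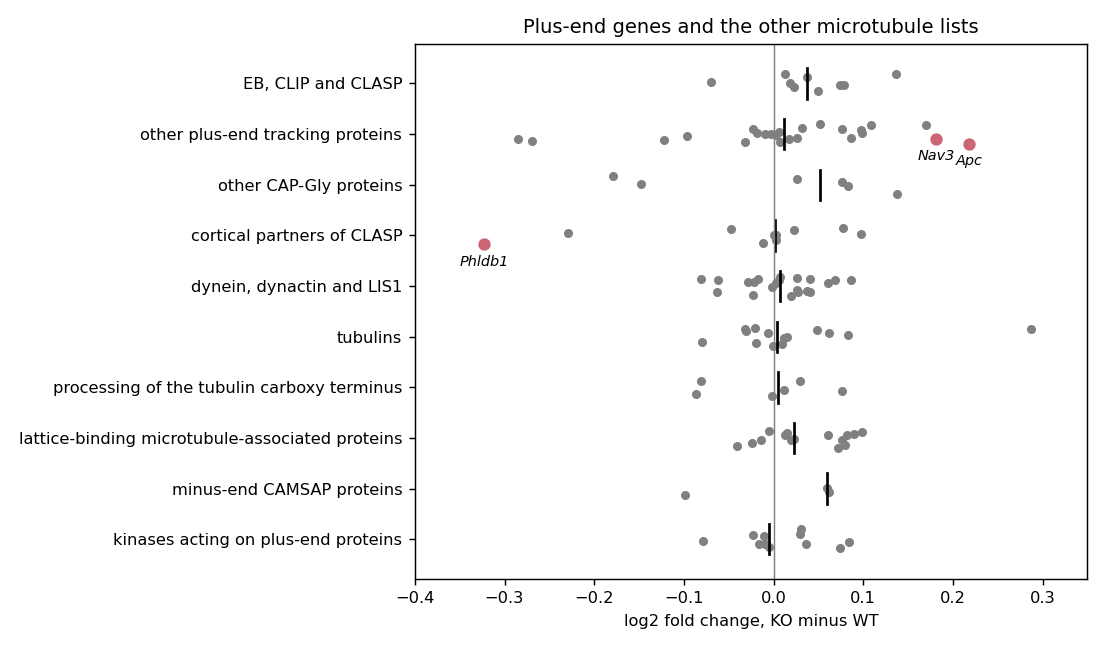
Log2 fold change, KO minus WT, of the 9 plus-end genes (top) and of the genes of 9 other microtubule lists, with a black line at each median. Red points passed an adjusted p of 0.05 (Apc, Nav3 and Phldb1), and Mapre2 and Clip3 are drawn in grey with no test.

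The other lists held no call by edgeR, and DESeq2 called none in them either. Their counts at an unadjusted p under 0.05 stand beside 10.6% of all tested genes. Among 6 other CAP-Gly proteins the smallest p belonged to Tbce, a tubulin folding cofactor (log2 fold change -0.18, adjusted p = 0.156 by edgeR), and Cyld, a deubiquitinase (0.14, adjusted p = 0.208 by edgeR), and 3 had an unadjusted p under 0.05. The 21 genes of dynein, dynactin and LIS1 held 0 at an unadjusted p under 0.05, with Dynlt3 at -0.08 and Dync1li2 at -0.06. The 14 tubulins, whose near-identical copies lose multi-mapped reads and are uncertain for that reason, also held 0, with Tubb4a at 0.05 and Tubb2b at 0.06. The 6 genes listed for the processing of the tubulin carboxy terminus held 0, with the tyrosine ligase Ttl at -0.08 and Agbl4, a carboxypeptidase that removes glutamates, at 0.08. Of the 15 lattice-binding proteins 5 had an unadjusted p under 0.05, led by the doublecortin-like kinases Dclk1 at 0.08 (adjusted p = 0.320 by edgeR) and Dclk2 at 0.10 (adjusted p = 0.374 by edgeR). The 3 minus-end CAMSAP genes held 0, with Camsap1 at 0.06 and Camsap2 at 0.06. Of the 11 kinases that act on plus-end proteins 1 had an unadjusted p under 0.05, Cdk5r1, the activator of Cdk5, at 0.07 (adjusted p = 0.384 by edgeR), followed by Ttbk1 at 0.08 (adjusted p = 0.518 by edgeR).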

How the data were processed

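Gene counts were measured by RNA-seq in PFC of 5 KO and 5 WT mice. By their methods and the submitters' processing notes, the authors sequenced 101 bp paired ends from TruSeq Stranded mRNA libraries, aligned them with STAR 2.7.1a to mm10, dropped secondary alignments and multi-mapped reads, and counted exons of Gencode M21 protein-coding genes with HTSeq 0.9.1. The deposited values are raw counts per gene, with no normalization. Libraries were grouped by the genotype in their titles.

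Counts were filtered (filterByExpr, 14344 genes kept), scaled by TMM and tested by the quasi-likelihood method of edgeR 4.0.16 (R 4.3.3), with p-values adjusted after Benjamini and Hochberg (threshold 0.05). The genotype model held 3 surrogate variables, which sva 3.50.0 derived with a seed of 1 from TMM-scaled values, log2(CPM + 1). The RIN model held genotype and RIN. SE is the log2 fold change divided by the square root of F. DESeq2 1.42.0 was an alternative. Correlations without KO mouse 2 or 3 were added after seeing the data. RPKM is TMM-scaled CPM per kilobase of exon. Named genes outside the 9 were, for each list, those passing the threshold (up to 4) or otherwise the 2 with the smallest p, and the 3 genes most correlated with Mapre2 and with Clip3. The members and lists were chosen with earlier results of these data known. The scripts were tested on simulated counts. Each library comes from a separate mouse. The coding tails of 2 of the 9 genes are not reported here.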

Additional observations from a re-analysis of the deposited data

Results flagged for a closer look

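In the 5 KO mice the Clasp2 level of KO mouse 5 was far from the others. It was at 319.4 CPM, the next highest KO mouse was at 309.4 CPM, and the gap was 0.779 of the whole range of the group, above Dixon's critical value of 0.71 for 5 samples. This was the only flag among 18 groups (9 genes in 2 genotypes), and chance flags about 1 in 20 groups. Without KO mouse 5 the log2 fold change of Clasp2 was -0.06, with an adjusted p of 0.505 by edgeR. The cause of the gap was not tested.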

How the results depend on the processing

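In every alternative run, 0 of 7 tested members passed in the genotype contrast and 0 of 9 in the RIN contrast. The log2 fold changes of Mapre3, Clasp1 and Clasp2 kept their sign in every run. Those of Mapre2 and Clip3 did too, which adds no evidence, as both were chosen by their values in these libraries. The count over all genes moved from 115 to 30 with no surrogate variables, 35 with 1, 57 with 2, 38 with RIN and 9 with a striatal marker score in their place, 227 by DESeq2, and 1 in mice with a RIN of 9.5 or above. It was 121 when the surrogate variables came from CPM with no TMM factors, a choice made after seeing the data. Leaving out each mouse in turn gave 39 (without WT mouse 3) to 255 (without KO mouse 2). The RIN count moved from 57 to 279 by DESeq2 and ranged from 1 to 98 with mice left out. The replicate numbers were not taken to pair the mice. Deviations of same-numbered mice correlated at -0.11 to 0.17, and 2 of 5 KO mice correlated best with their own number. So few mice cannot show whether a pairing exists. With the replicate number as a block, the genotype count was 24 (53 with RIN added) and the RIN count 0. Clip1 turned to -0.017 and Clip2 to -0.014 with no surrogate variables and with RIN. Under the replicate block they turned to -0.017 and -0.015, and with RIN added to -0.017 and -0.014. Clip4 turned to -0.013 with the striatal score and Mapre1 to -0.021 in mice of high RIN. With mice left out, the lowest and highest values were -0.011 and 0.062 for Mapre1, 0.013 and 0.063 for Mapre3, -0.016 and 0.048 for Clip1, -0.011 and 0.048 for Clip2, 0.0055 and 0.073 for Clip4, and -0.0047 and 0.080 for Camsap1. The RIN slope of Clip2 ranged from -0.00013 to 0.063. By the longest transcript, mean RPKM over all mice was 13.7 for Mapre1, 76.9 for Mapre2, 88.9 for Mapre3, 27.4 for Clip1, 147.8 for Clip3, 17.4 for Clip4, 13.5 for Clasp1 and 56.5 for Clasp2. Levels moved by less than 1 SD with DESeq2 size factors (RLE) and in mice of high RIN. The causes were not tested.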
